A study of Mus musculus with 9 samples.

Results

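Between D1.5 and D2.5 (1.5 and 2.5 days after differentiation began), mouse embryonic stem (ES) cells kept without doxycycline switched on genes of the primitive streak and lost part of their epiblast transcripts. The step is the difference of 2 arrays, D2.5 Dox- minus D1.5 Dox-, out of 9 arrays in all. The other arrays are undifferentiated ES cells, D0.5 and D3.5 Dox-, and D0.5, D1.5, D2.5 and D3.5 Dox+, with Dox+ meaning 1 µg/ml doxycycline. Undifferentiated cells were kept in doxycycline at this dose as well, together with leukemia inhibitory factor, and all later arrays are of cells in serum medium. Per the labels, the cells carry a protein kinase A that is always active once made and that doxycycline controls, but the labels do not say which medium turned it on. No source used here gives the ES cell line, its clones or the promoter of the transgene. Each group is 1 array with no replicate, so no value below carries a test, a standard error or a p-value, and precision is limited by how few arrays there are.

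Values are array signals that the authors scaled to an average of 100, and each gene was read by its brightest probe set with a single gene symbol over the 9 arrays. Of 18193 such genes, 8716 reached a signal of 50 on at least 2 arrays and are called tested genes here. Differences are given as log2(signal + 16) of the later array minus that of the earlier, a scale on which changes of dim genes come out too small. A gene is said to have risen or fallen where it differed by at least 1 on that scale, which is 2-fold. At the edge of the signal filter, Bmyc, Gatm and Kcp had a second-highest signal of 50.0 and were kept, with differences of -0.31, -0.26 and 0.19. Accs, Mir670hg and R3hcc1l had 49.9 and were left out, with differences of -0.01, -0.95 and -0.15. On the D1.5 and D2.5 Dox- arrays 42.9% and 43.2% of genes reached a signal of 50 (41.6% to 44.2% over the 9 arrays), and the 3' to 5' ratio of Actb, a sign of RNA integrity, was 1.98 and 1.93. With no replicates, the D0.5 arrays of the 2 media give a rough scale, since their differences had an SD of 0.20 over tested genes and 10 genes were 2-fold apart. For the step the SD was 0.52, and 462 genes were 2-fold apart.

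The primitive streak is the band of the embryo where epiblast cells leave the epithelium and become mesoderm and endoderm. Wnt, Nodal, bone morphogenetic protein (BMP) and fibroblast growth factor (FGF) signals start it, T-box and homeobox factors such as Eomes and Mixl1 mark it, and Mesp1 marks the mesoderm that leaves it early. The epiblast keeps Pou5f1 while it loses naive factors of the ES cell state, such as Zfp42 and Klf4, and gains formative and primed ones, such as Fgf5, Otx2 and Pou3f1. Differentiating ES cells are known to pass through states with these transcripts.

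The 4 genes taken as marks of nascent streak mesoderm, Mixl1, Mesp1, Lhx1 and Pdgfra, all rose at least 16-fold in the step. Mesp1, which encodes a helix-loop-helix factor of early cardiac and cranial mesoderm, had a signal of 12.7 in undifferentiated cells, then 13.2, 13.8, 1432 and 696 from D0.5 to D3.5 in Dox-, and 9.9, 9.5, 14.6 and 253 in Dox+. Its difference over the step, 5.60, was the furthest upward of all tested genes. Mixl1, a paired-type homeobox gene of the streak, read 10.5 in undifferentiated cells, 9.8, 21.0, 1177 and 465 in Dox-, and 3.9, 9.8, 15.7 and 302 in Dox+ (difference 5.01). Both genes were high on D2.5 and D3.5 in Dox- and on D3.5 in Dox+, and at 21.0 or less on the other arrays. Pdgfra, a receptor of platelet-derived growth factors on early mesoderm, read 36.3 in undifferentiated cells, 11.6, 15.8, 729 and 661 in Dox-, and 6.1, 17.5, 4.0 and 124 in Dox+ (difference 4.55). Unlike Mesp1 and Mixl1, it was at nearly the same level on D2.5 and D3.5 in Dox-. Lhx1, a LIM homeobox gene of the streak and its mesendoderm, read 0.8 in undifferentiated cells, 1.2, 52.0, 1083 and 215 in Dox-, and 0.4, 0.5, 3.8 and 190.1 in Dox+ (difference 4.01). Of the 4, only Lhx1 had already risen in Dox- from D0.5 to D1.5, by 1.98. A second probe set of Lhx1 gave 3.72 for the step, and the other probe sets of Pdgfra, both dim, gave 2.14 and 1.58. In these bulk samples, more cells with a transcript and more RNA per cell cannot be told apart.

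**Figure D1:**
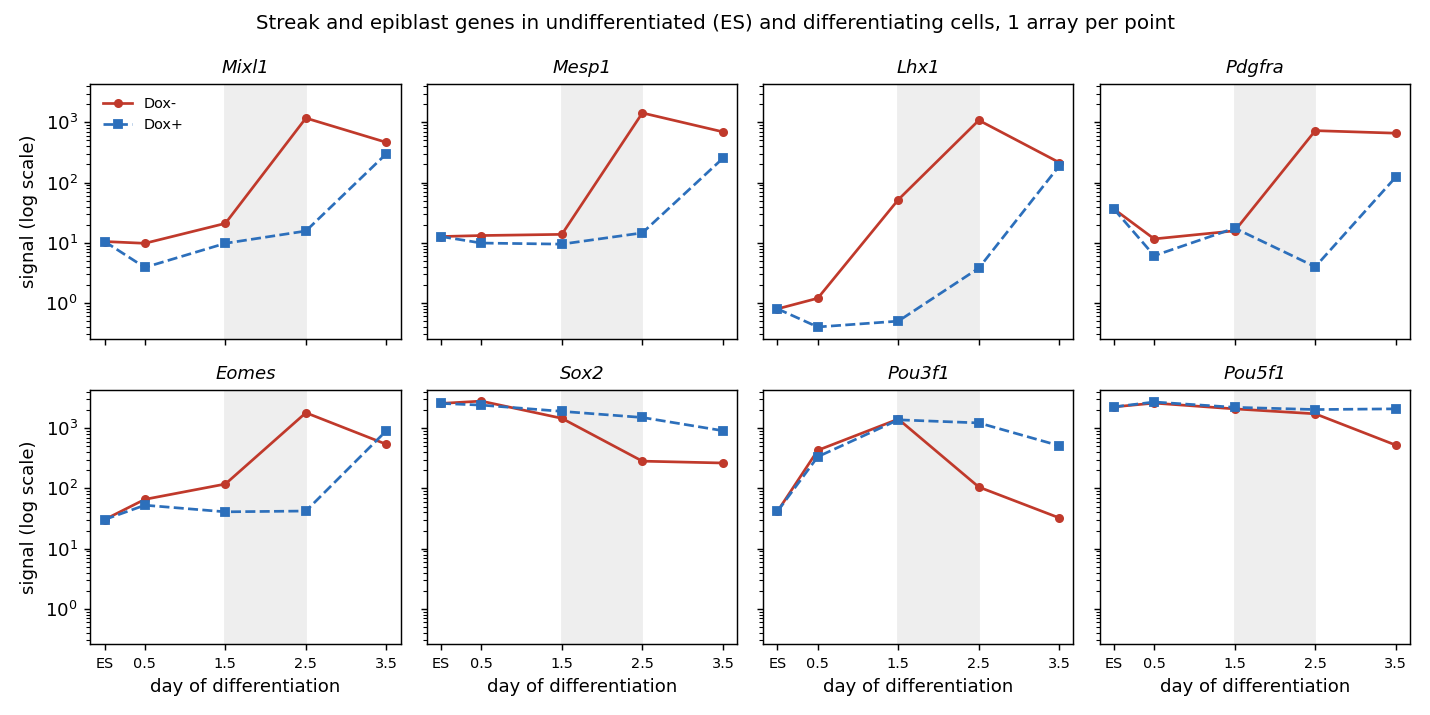
Signal (log scale) of 8 genes against the day of differentiation, 1 array per point, with circles and solid lines for Dox-, squares and dashed lines for Dox+, and undifferentiated cells (ES) at the left of both; the grey band is the D1.5 to D2.5 step. In the band Mesp1 goes from 13.8 to 1432 in Dox- and from 9.5 to 14.6 in Dox+, while Pou5f1 reads 2095 and 1735 in Dox-.

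The promoters of 3 of these markers are shown because the genes moved together in the step, and Mixl1 is not in the promoter table used. They are RefSeq sequences of assembly GRCm38.p6, from 250 bases before to 50 after the start of the gene, in the direction of the gene. The Mesp1 window is chr7:79793541-79793840 (minus strand), the Lhx1 window chr11:84525485-84525784 (minus strand) and the Pdgfra window chr5:75152001-75152300 (plus strand). Capitals mark matches on either strand to AGGTGTGA, the core of a T-box element, which factors such as Eomes bind, and to CTTTGAT, a core of TCF/LEF elements, through which Wnt signals act on genes. The matches do not overlap each other.
Mesp1: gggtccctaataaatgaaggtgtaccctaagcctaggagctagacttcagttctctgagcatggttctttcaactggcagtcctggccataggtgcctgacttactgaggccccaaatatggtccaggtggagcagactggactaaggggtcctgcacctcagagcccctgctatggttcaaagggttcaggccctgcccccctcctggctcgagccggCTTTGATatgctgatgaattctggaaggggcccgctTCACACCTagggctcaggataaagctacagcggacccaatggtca
Lhx1: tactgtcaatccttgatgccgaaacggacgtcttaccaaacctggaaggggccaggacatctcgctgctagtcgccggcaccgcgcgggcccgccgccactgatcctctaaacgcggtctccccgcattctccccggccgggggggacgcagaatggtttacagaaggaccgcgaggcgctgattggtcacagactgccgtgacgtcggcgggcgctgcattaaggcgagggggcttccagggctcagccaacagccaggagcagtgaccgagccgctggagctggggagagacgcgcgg
Pdgfra: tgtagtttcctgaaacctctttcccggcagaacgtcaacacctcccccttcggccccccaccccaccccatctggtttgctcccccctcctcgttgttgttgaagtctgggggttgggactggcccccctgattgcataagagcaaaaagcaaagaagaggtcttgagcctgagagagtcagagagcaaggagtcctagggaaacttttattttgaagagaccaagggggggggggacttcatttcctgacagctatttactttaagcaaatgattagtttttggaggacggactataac
The Mesp1 window held both motifs, the TCF/LEF letters at bases 220 to 226 and the T-box letters, on the opposite strand, at bases 256 to 263. Neither set of letters occurred in the Lhx1 or Pdgfra window. Of the 18 tested streak genes with a promoter in the table, 4 held the TCF/LEF letters (22.2%), namely Foxa2, Mesp1, Sp5 and Wnt5b. The share was 2.97% over 7170 tested genes and 3.73% over all 32851 windows. Among genes that rose 9 of 185 held them (4.86%), and among genes that fell 10 of 166 (6.02%). The T-box letters stood in 1 of the 18 (Mesp1), in 0.893% of the 7170, in 3 of the 185 (1.62%), in 1 of the 166 (0.602%) and in 1.28% of all windows. A match describes letters and is not a binding site.

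Over all tested genes, 245 rose (2.81%) and 217 fell (2.49%) in the step, with a median difference of -0.003. Genes that rose mostly started low. Of the 245, 130 had a signal under 50 on D1.5 and 3 on D2.5, and their median signal was 43.1 on D1.5 and 212 on D2.5. Genes that fell changed by smaller folds, with a median signal of 156 on D1.5 and 43.3 on D2.5. Among those that rose, 76 did so at least 4-fold and 9 at least 16-fold, against 21 and 0 among those that fell. Over undifferentiated and Dox- cells, the highest of the 5 readings was on D2.5 for 102 of the 245 and on D3.5 for 125. For the 217 it was on D1.5 for 107, on D0.5 for 57 and in undifferentiated cells for 49.

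**Figure D2:**
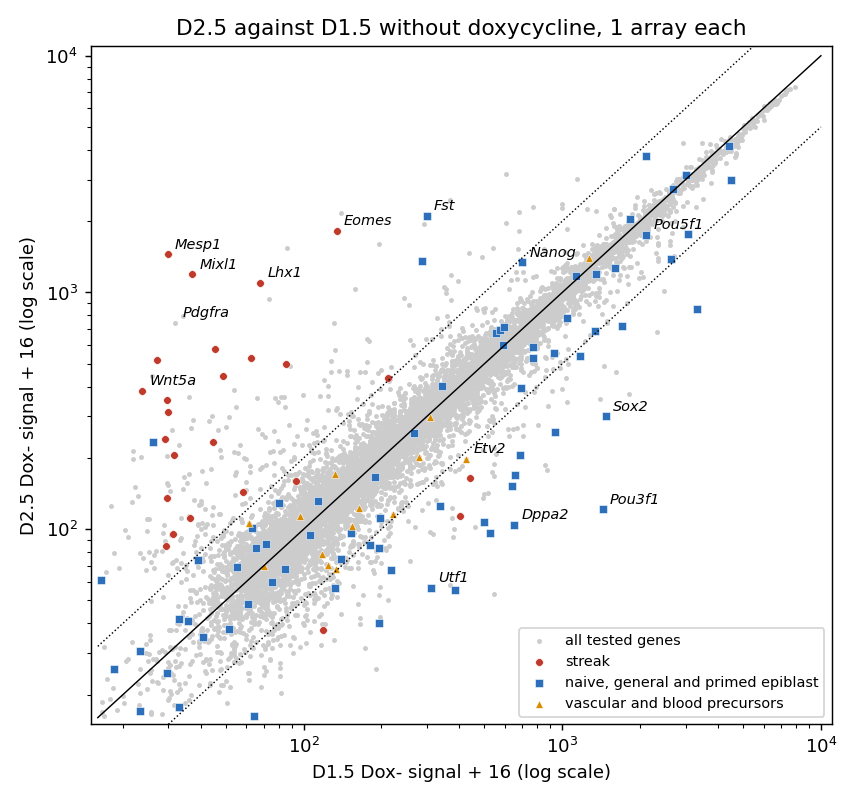
Signal plus 16 on D2.5 Dox- against D1.5 Dox-, both axes log, for 8716 tested genes (grey), streak genes (red circles), genes of 3 epiblast lists (blue squares) and vascular and blood precursor genes (orange triangles); the solid line marks no difference and the dotted lines 2-fold. Mesp1, Mixl1 and Pdgfra lie far above the upper dotted line, Sox2 and Pou3f1 below the lower one from 1461 and 1419 on D1.5, and Pou5f1 between them.

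Streak transcription factor genes moved up nearly as a group. Of 18 with a probe set among 19 listed, 14 rose and 0 fell, with a median difference of 2.45, where 1.73% of all 18193 genes rose and 1.41% fell. Of these, 9 passed the signal filter and rose, a count with little weight of its own, since a gene that is off on D1.5 passes only by being bright later. T (brachyury) was not analysed here. After Mesp1 and Mixl1 the furthest up was Sp5, a zinc finger gene known as a direct target of Wnt signals, with 11.2 on D1.5 and 505 on D2.5 (4.26). Eomes, a T-box gene that Nodal signals induce, read 30.4 in undifferentiated cells, 65.9, 118, 1808 and 540.3 in Dox-, and 52.7, 40.9, 42.2 and 911 in Dox+ (difference 3.76). In Dox+ it thus held a low level up to D2.5 and was high on D3.5 alone. Evx1, an even-skipped homeobox gene of the streak, read 13.5 and then 334 (3.57), with 306 on D3.5. The caudal gene Cdx2, of the posterior streak, read 13.1, 225 and 915 on D1.5, D2.5 and D3.5 (3.05), and Nkx1-2, of the caudal epiblast, 28.8, 218 and 771 (2.39). These posterior genes went on upward after D2.5. Foxa2, a forkhead gene of the anterior streak and endoderm, read 15.2, 79.7 and 11.5 (1.62), and Gsc, the homeobox gene goosecoid of the same region, 6.5, 113 and 25.5 (2.52). The anterior genes were thus highest on D2.5 and low again on D3.5. A fall after D2.5 was not particular to them, since 9 of the 18 fell from D2.5 to D3.5 in Dox- and 3 rose. Those that fell included Mixl1 (-1.31), Eomes (-1.71), Lhx1 (-2.25) and Mesp2 (-1.71). In the step from D1.5 to D2.5, Mesp2 (2.56), Tbx6 (1.29), Msgn1 (1.22) and Foxc1 (1.36) also rose but from signals of at most 8.5 to at most 129. Snai1, a repressor of E-cadherin that acts as streak cells leave the epithelium, read 9.4 and 31.3 (0.90), a dim gene short of 2-fold, and Cdx4 read 7.8 and 7.6.

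Of 29 streak ligand and antagonist genes with a probe set, 17 rose and 3 fell (Sfrp1, Sfrp2 and Apela), with a median of 1.12. Among ligand genes, Nodal, Bmp2 (0.77), Bmp7 (0.91) and Fgf17 (0.64) stayed within 2-fold. Wnt5a, a Wnt ligand of streak cells that leave the midline, read 5.5 in undifferentiated cells, 7.1, 7.8, 368 and 1132 in Dox-, and at most 49.6 in Dox+ (difference 4.01). Wnt5b read 13.9 and 298 (3.39), and Wnt8a, a ligand of the posterior streak, 13.3 and 68.8 with 4.8 on D3.5 (1.53). Wnt3, the ligand that starts the streak in the mouse embryo, read 0.2 and 33.5 (1.61), and Wnt3a 1.9 and 20.0, both dim. The listed Wnt ligand genes, Wnt11 (1.12) included, thus all rose, and Wnt8a was dim again on D3.5. Rspo3, which strengthens Wnt signals, read 32.9 and 427 (3.18). Fgf8, an FGF that streak cells need in order to migrate away, read 69.3 and 481 (2.54), and Fgf3 15.5 and 191 (2.71). Bmp4, which induces mesoderm, read 13.6, 120 and 1355 on D1.5, D2.5 and D3.5 (2.20). Nodal, a TGF-beta family ligand gene, was already at 579.8 on D1.5 and read 701 on D2.5 (0.27), and its feedback inhibitor Lefty2 read 195 and 419.5 (1.04). Cfc1, a Nodal co-receptor family gene, rose by 1.62.

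Secreted antagonists split. Frzb, a Wnt-binding protein gene, read 29.4 and 564 (3.67), Dkk1, which blocks Wnt co-receptors, 46.6 and 511 (3.07), and Fst, the activin-binding follistatin gene, 283 and 2098 (2.82). Fst and Frzb were low again on D3.5, at 289 and 95.0, while Dkk1 was at 834. The Wnt-binding Sfrp1 and Sfrp2 fell instead, from 102.5 to 21.4 (-1.66) and from 422 to 148.5 (-1.41). Apela, a peptide ligand of the apelin receptor, fell from 387.5 to 97.9 (-1.82), while the receptor gene Aplnr rose from 124 to 2154 (3.95) and the other ligand gene, Apln, from 42.1 to 127 (1.30). Receptor and ligands of this system therefore did not move one way.

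Genes for receptors and surface proteins of nascent mesoderm rose in 19 of 29 cases, with 0 fallen and a median of 1.49 over the 29. Cdh11, a cadherin of mesenchyme, read 18.2 and 779.5 (4.54), and Cdh2 (N-cadherin) 270.4 and 1346 (2.25). The protocadherin genes Pcdh8 (3.68), Pcdh7 (3.29) and Pcdh19 (2.78) rose with them, and Pcdh8, a gene of paraxial mesoderm, went from 57.4 to 922 and back to 34.8 on D3.5. Kdr, the receptor of vascular endothelial growth factor that marks early lateral mesoderm, read 16.4 in undifferentiated cells, 17.4, 87.4, 274 and 483 in Dox-, and at most 22.5 in Dox+ (difference 1.49). Cxcr4, a chemokine receptor gene of endoderm and mesoderm, read 4.9 and 76.6 (2.15), and Pdgfrb 14.3 and 129 (2.26). The Notch ligand genes Dll1 (38.7 and 313) and Dll3 (32.1 and 185) rose, whereas Notch1 itself read 135 and 232 (0.72). The FGF receptor genes Fgfr1 and Fgfr2 stayed within 2-fold, at 0.20 and -0.34.

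**Figure D3:**
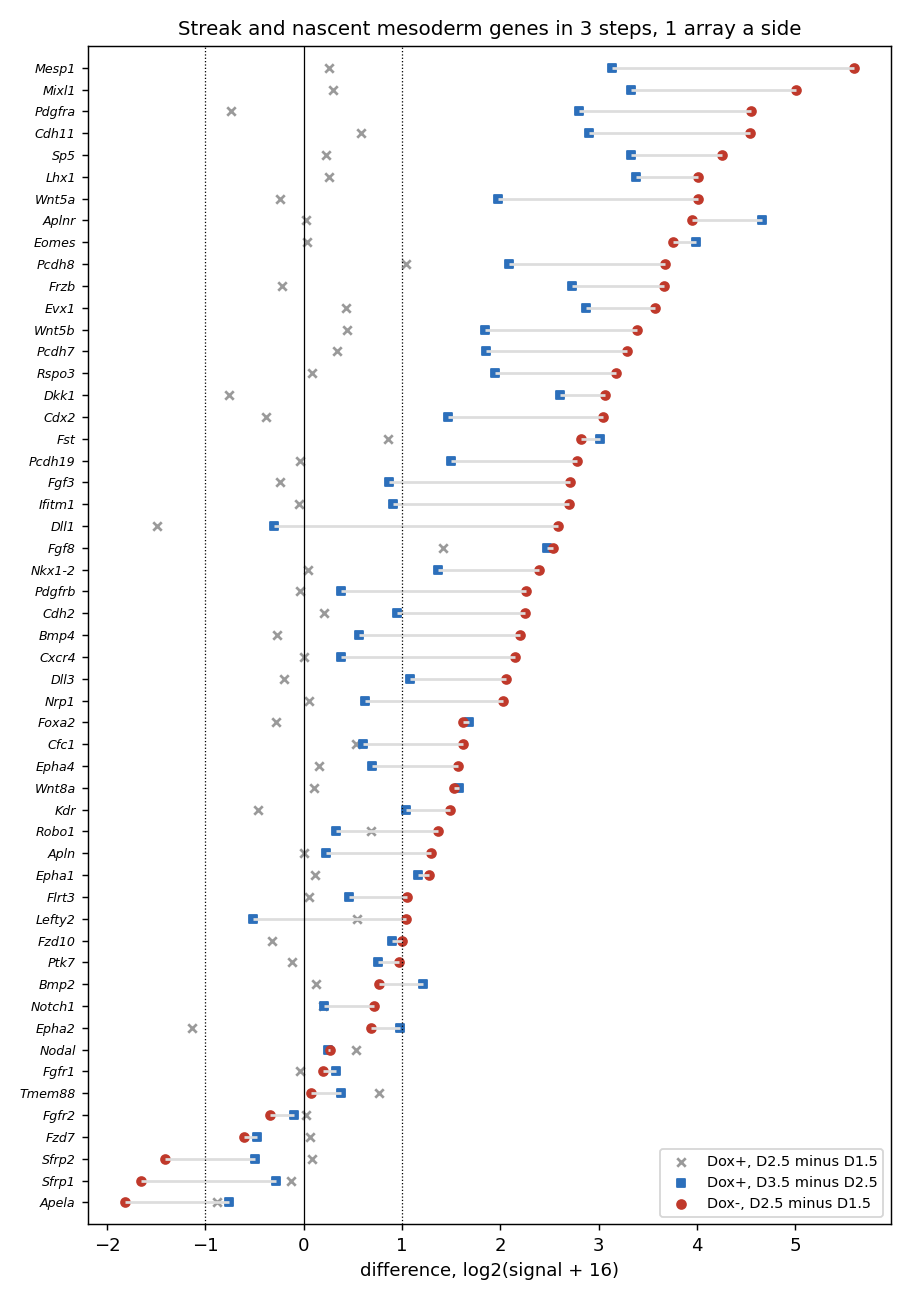
Differences on the log2(signal + 16) scale for tested streak and mesoderm surface genes, sorted by the Dox- step from D1.5 to D2.5 (red circles), beside the same days in Dox+ (grey crosses) and the Dox+ step from D2.5 to D3.5 (blue squares); dotted lines mark 2-fold and each point compares 2 single arrays. Red circles reach 5.60 (Mesp1), the crosses of Dll1 and Epha2 lie below -1, and most blue squares lie between the crosses and the circles.

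Among lists for derivatives of the streak, a minority of paraxial mesoderm and lateral plate genes rose, and 0 of the vascular and blood precursor genes did. Of 21 paraxial and segmentation genes 8 rose and 0 fell (median 0.52), led by Cyp26a1, a retinoic acid-degrading enzyme gene, which read 70.0 and 1528 (4.17). The somite genes Meox1, Pax3 and Uncx stayed at signals of 5.6 or less on both days. Of 25 lateral plate and heart genes 7 rose and 2 fell (median 0.33). Msx2, a homeobox target of BMP signals, read 2.0, 109 and 640 on D1.5, D2.5 and D3.5 (2.80). Gata6, a zinc finger gene of endoderm and cardiac mesoderm, read 35.5, 280 and 335 (2.52). Tbx20 and Isl1, cardiac regulator genes, read 10.4 and 52.3 (1.37) and 12.6 and 80.7 (1.76), and reached 855 and 506 on D3.5. Their step from D1.5 was therefore the smaller one. In the next step, D2.5 to D3.5, 13 of the 25 rose and 0 fell, where 2.37% of all 18193 genes rose and 1.26% fell. Among the 10 that passed the signal filter 7 rose and 0 fell, beside 2.89% and 2.19% of tested genes. That step shares the D2.5 array with the one described here, so an error of that array moves both, in opposite directions.

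The 27 vascular and blood precursor genes gave 0 risen and 1 fallen, beside 1.73% and 1.41% of all 18193 genes. Etv2, an ETS factor gene needed to form endothelial and blood progenitors, read 33.7 in undifferentiated cells, 32.1, 408, 183 and 290.0 in Dox-, and 55.2 or less in Dox+ (difference -1.09). It had its highest reading a day ahead of Mesp1 and Mixl1. Fli1 read 148 and 107.5, Sox18 118 and 52.2, Tal1 205 and 101, and Ctla2a 291 and 282, all within 2-fold on the log2(signal + 16) scale (-0.41, -0.97, -0.92 and -0.04). Without the pseudocount of 16, Sox18 and Tal1 are just past 2-fold lower. Of the 14 tested genes of the list 12 had risen from D0.5 to D1.5, which shares the D1.5 array with the step.

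Definitive endoderm genes went both ways, with 3 of 18 risen and 2 fallen (median -0.10). Besides Gsc and Foxa2, Krt19 rose (1.66), and Cldn6 and Apela fell. Sox17, which specifies endoderm, read 100.2 and 90.0, and Cer1, an anterior endoderm antagonist gene, 30.9 and 28.6. Neither thus moved with Foxa2 and Gsc.

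Epithelial genes fell in part and mesenchymal genes rose in part. Of 31 epithelial adhesion genes 9 fell and 3 rose (median -0.63), and of 24 mesenchymal genes 8 rose and 0 fell (median 0.80). Cdh1, the E-cadherin gene, read 1334 in undifferentiated cells, 1698, 2004, 1208 and 254 in Dox-, and 2007 on D3.5 in Dox+ (difference -0.72). Its reading was thus lower on D2.5 by less than 2-fold and much lower on D3.5. Among the 9 that fell in the step itself, Marveld3, a tight junction gene, read 104.5 and 23.8 (-1.60), Crb3, a Crumbs polarity gene, 139 and 41.3 (-1.43), Ocln 165 and 56.5 (-1.32), Cldn6 179 and 67.2 (-1.23) and Cldn7 599 and 248 (-1.22). Grhl2, a transcription factor gene that keeps up epithelial junction genes, read 202 and 51.5 (-1.69), having been at 281 on D0.5. Marveld3, Crb3, Ocln, Cldn6 and Cldn7 had all risen from D0.5 to D1.5, as with Cldn7 at 17.6 on D0.5. Another tight junction gene, Tjp1, read 1044 and 913 (-0.19). Not all epithelial genes fell, since the desmosome gene Dsp (163 and 608, 1.80) and the keratin gene Krt8 (254 and 529, 1.01) rose. On the mesenchymal side, Fn1, the fibronectin gene, read 588.5 and 3153 (2.39), Vim (vimentin) 978 and 2346 (1.25), and Zeb1, a repressor of epithelial genes, 25.6 and 86.2 (1.30). Cdh1 fell 2-fold only from D2.5 to D3.5 (-2.18), whereas Cdh2 had risen from D0.5 to D1.5 (90.3 and 270.4, 1.43) and again in the step, and read 1434 on D3.5.

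Epiblast genes fell selectively. Of 79 naive, general and formative or primed pluripotency genes with a probe set, 21 fell and 5 rose, with a median of -0.32. Over all 18193 genes 1.41% fell and 1.73% rose. Among those that rose, Fst and Cdh2 are also counted in the streak and mesoderm lists above. By list, 1 of 26 naive genes fell, 10 of 23 general and 12 of 34 formative and primed ones, with 2 of these on both of the latter lists. The furthest down of all tested genes was Pou3f1 (Oct6), a POU factor of the primed epiblast, with 41.7 in undifferentiated cells, 430.3, 1419, 105.5 and 32.4 in Dox-, and 336, 1379, 1225 and 512 in Dox+ (difference -3.56). A second, dimmer probe set gave -2.01. Sox2, the partner of Pou5f1 in the pluripotency network and later a neural factor, read 2582 in undifferentiated cells, 2822, 1461, 284 and 265 in Dox-, and 2422, 1906, 1508 and 909 in Dox+ (difference -2.30). Sox2 had already read lower on D1.5 than on D0.5 in Dox- (-0.94), and Pou3f1 fell again from D2.5 to D3.5 (-1.33). Over the same days in Dox+ the differences were -0.17 for Pou3f1 and -0.33 for Sox2. Pou5f1 read 2263 in undifferentiated cells, 2614, 2095, 1735 and 524 in Dox-, and 2043 or more in Dox+ (difference -0.27).

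Sorted by when they fell, 35 of the 74 tested epiblast genes were at least 2-fold lower on D3.5 than on D1.5. Of these, 10 fell from D1.5 to D2.5 only, 10 in both steps, 12 from D2.5 to D3.5 only, and 3 in neither step alone. Those that fell from D1.5 to D2.5 only were Enpp3 (369 and 39.5, -2.80), Gdf3, a TGF-beta family ligand gene (509 and 80.2, -2.45), Sox2, Pla2g10 (-2.29), the nuclear receptor gene Nr0b1 (-1.98), the Nodal antagonist gene Lefty1 (639 and 153, -1.96), Dnmt3a (-1.86), Grhl2 (-1.69), Sall2 (-1.42) and Cldn6 (-1.23). Of these 10, Enpp3 (-1.24) and Nr0b1 (-3.22) had already fallen from D0.5 to D1.5, as had 27 of the 74. Those that fell in both steps included Pou3f1, Dppa2 (637.5, 88.3 and 13.9 on D1.5, D2.5 and D3.5), Utf1, a chromatin-bound factor of pluripotent cells (296, 40.5 and 10.6), Myb, Slc27a2, Dppa5a, Dppa4, Foxd3, Pim2 and Eras. Eras and Pim2 lost little at first (-1.13 and -1.23) and most afterwards (-3.94 and -3.51).

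The genes that fell a day later held Pou5f1, Nanog, Fgf5 and Otx2. Of the formative and primed genes, 6 fell in the first of the 2 steps only, 5 in both and 7 in the second only. Fgf5, an FGF gene of the primed epiblast, read 1.7 in undifferentiated cells, 25.8, 755, 570.3 and 21.0 in Dox-, and 708 on D3.5 in Dox+ (difference -0.39). Otx2, a homeobox gene of the primed epiblast and anterior tissues, read 1326, 671 and 53.8 on D1.5, D2.5 and D3.5 (-0.96 and then -3.30). Zic5 (-0.75 and then -2.81), Zic2, Fgf4, Chchd10, L1td1, Sox4, Car2 and Nrcam fell with them. Nanog read 1630 in undifferentiated cells, 745, 685, 1324 and 306 in Dox-, and 828, 826 and 1887 on D1.5 to D3.5 in Dox+ (difference 0.93). It was thus higher on D2.5 than on D1.5 before it fell, and Tdgf1, the gene of the Nodal co-receptor Cripto, was too (2098, 3773 and 1227). By their brightest probe sets the de novo methyltransferase genes parted, with Dnmt3a at 919 and 241 and Dnmt3b at 4474 and 2958 (-0.59). This contrast depended on the probe set. Other Dnmt3a probe sets gave from -2.09 to -0.33, and a second Dnmt3b probe set read 3090 and 1537. With the mean of all probe sets Dnmt3a gave -1.24 and Dnmt3b -0.8. Dnmt3b, Etv5 and Tcf15 are the 3 that were lower by D3.5 without a 2-fold fall in either step. No other of 20 methylation enzyme genes rose or fell.

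**Figure D4:**
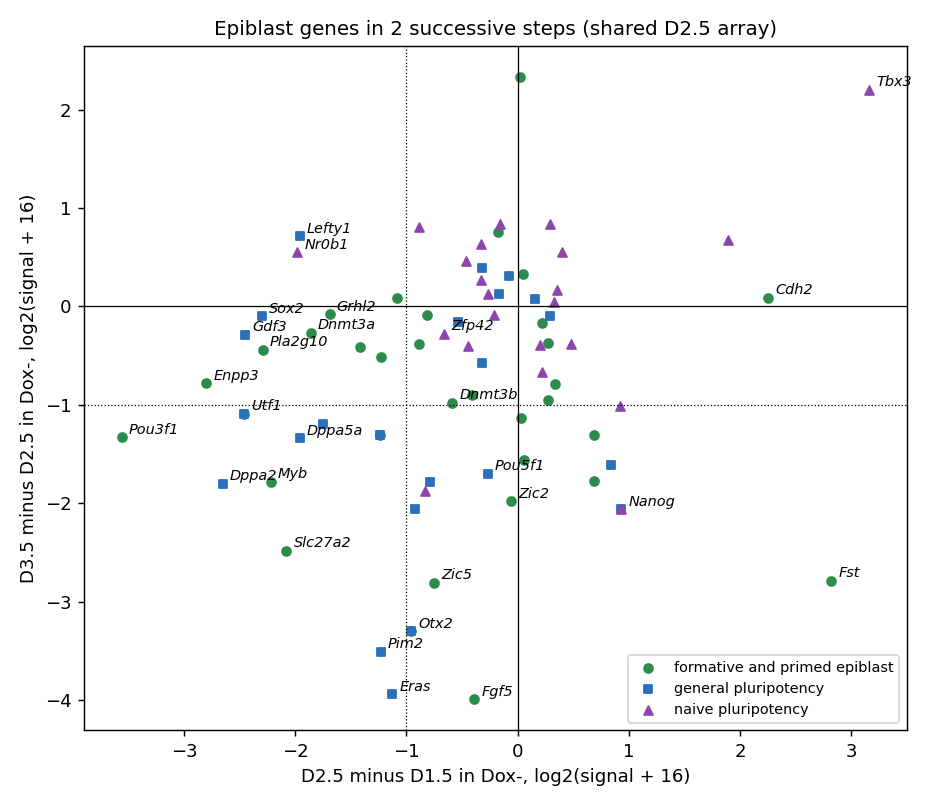
Difference of 74 tested epiblast genes from D2.5 to D3.5 against that from D1.5 to D2.5 in Dox-, log2(signal + 16), with formative and primed genes as green circles, general ones as blue squares and naive ones as purple triangles; dotted lines mark a 2-fold fall and both axes share the D2.5 array. Sox2 and Enpp3 lie to the left, fallen by 2.30 and 2.80 in the first step only, Fgf5 and Otx2 at the bottom, fallen in the second only, and Fst and Tbx3 to the right.

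Naive pluripotency genes had mostly gone before the step. Of 22 tested, 19 were at least 2-fold lower on D1.5 than on D0.5, 15 had a signal under 50 on D1.5, and their median over the step was 0.02. Zfp42 (Rex1) read 2834 in undifferentiated cells and 1712, 136, 80.3 and 63.1 in Dox- (difference -0.66). Tbx3 and Prdm14 rose in the step, while 1 of the 22 fell and 19 stayed within 2-fold. Tbx3, which also acts in the lateral plate, read 812 in undifferentiated cells, 284, 10.2, 218 and 1061 in Dox-, and 74.8, 11.3 and 58.6 on D1.5 to D3.5 in Dox+ (difference 3.16). Prdm14, of naive cells and germ cell precursors, read 0.5 and 45.3 (1.89).

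In Dox+, few of these genes moved on the same days and many moved a day later. From D1.5 to D2.5 in Dox+, 0.769% of tested genes rose and 1.04% fell, and from D2.5 to D3.5 1.32% rose and 0.769% fell. These pairs share no array with the Dox- step, but they share the D2.5 Dox+ array with each other. Of the 245 genes that rose in the Dox- step, 8 rose in Dox+ on the same days (3.27% of the 245, 11.9% of 67) and 98 a day later (40.0% of the 245, 85.2% of 115), with 10 and 0 fallen. Of the 217 that fell, 19 fell in Dox+ on the same days (8.76% of the 217, 20.9% of 91) and 40 a day later (18.4%, and 59.7% of 67), with 15 and 0 risen. Without the signal filter, 103 of 314 rose a day later. Among the 47 streak genes with a probe set 1 rose in Dox+ on the same days and 19 a day later, with 0 fallen in both. Their medians were 0.07 and 0.56. Among the 27 tested ones 1 and 18 rose, with medians of 0.08 and 1.68. A gene can pass the filter through the D3.5 Dox+ array itself, so the shares among tested genes are in part built in. The folds a day later in Dox+ were mostly smaller, with a median of 0.84 over the 245, against 1.61 in the Dox- step. The 245 were picked by their Dox- difference, so smaller values in other arrays are in part built in. A day later in Dox+, Mesp1 gave 3.14, Mixl1 3.33, Lhx1 3.38 and Pdgfra 2.80. Eomes (3.99), Aplnr (4.66) and Fst (3.01) gave more there than in the Dox- step. Of the epiblast genes that fell by D2.5 in Dox-, Pou3f1 gave -1.23 a day later in Dox+ and Sox2 -0.72. Among the 20 that fell in the Dox- step and stayed down, 1 fell in Dox+ on the same days and 8 a day later, and of the 12 that fell a day later in Dox- 1 did. Some of the 245 differed by less than 0.5 in Dox+ a day later, and the 8 of these with the largest Dox- differences were Phlda2 (2.74, against 0.48), Dll1 (2.59, -0.30), Pdgfrb (2.26, 0.38), Cxcr4 (2.15, 0.38), 2510009E07Rik, Apcdd1, Col13a1 and Prdm14.

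Over the 9 arrays, the profiles most like that of Mixl1 were those of Mesp1 and Pcdh7 (Pearson's r of log2 values 0.993 each), Crot and Evx1 (0.989 each) and Chst7 (0.984). Each is a coefficient over 9 arrays that share 1 course of differentiation. Crot, an acyltransferase gene of peroxisomes, read 157 and 445 in the step (1.42), and Chst7, a sulfotransferase gene, 21.4 and 273.5 (2.95). Both thus followed Mixl1 with smaller folds.

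Other genes at the extremes belong to none of the lists. Asb4, an ankyrin repeat gene, read 10.0, 428 and 1847 on D1.5, D2.5 and D3.5 (4.09). Slc35d3 fell from 528 to 37.2 (-3.35), the long noncoding RNA gene Miat from 353 to 42.1 (-2.67), Spon1 from 156 to 15.6 (-2.45), and Abcc4, a transporter gene whose product exports cyclic AMP among other substrates, from 861 to 162 (-2.30). Slc35d3, Miat and Spon1 had been at 129.5 or less in undifferentiated cells and on D0.5, so they were gained by D1.5 and lost by D2.5. Gm9564 (-2.89), the metallothionein gene Mt2 (-2.28) and the zinc finger gene Bnc2 (-2.20) complete the furthest down outside the lists.

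Marker genes of other cell types that the cultures could hold moved as follows. Over all 18193 genes 1.73% rose and 1.41% fell. Of 16 trophoblast genes 5 rose and 0 fell (median 0.37), and their summed signal was 535 on D1.5 and 4248.5 on D2.5. Phlda2 (1939) and Eomes (1808) held most of the D2.5 sum. The 4 that passed the filter, Eomes, Cdx2, Phlda2 and Tfap2c, all rose, and Eomes and Cdx2 are streak genes too. The trophoblast genes Elf5, Tpbpa and Ascl2 read 1.6, 5.0 and 7.0 on D2.5. Of 23 extraembryonic endoderm genes 3 rose (Pdgfra, Gata6 and Pth1r) and 0 fell, with a summed signal of 2270 and 3851. Afp, Ttr and Apoa1 read 13.2, 17.6 and 4.9 on D2.5. Of 24 neural genes 1 rose and 3 fell, with Sox1 at 64.9 and 8.1 (-1.75), Sox3 at 165 and 69.7 (-1.08), and a summed signal of 734 and 705. Of 16 fibroblast genes 3 rose and 1 fell, with a summed signal of 345 and 509. Pdgfrb (129 on D2.5), Col1a2 (76.3, 1.05) and Fbln2 (52.9, 1.09) rose and Dcn fell (-1.26), while Col1a1, Postn and Lum read 0.9 or less on D2.5. The 3 low genes given for each of trophoblast, extraembryonic endoderm and fibroblast were picked after their values were seen. The part of these cell types and of neural cells in the results was not tested.

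Few genes of the housekeeping lists and few Hox genes rose or fell, as over all 18193 genes, of which 1.73% rose and 1.41% fell. Counts this small in the step do not set these lists apart from genes in general. Of 34 cell cycle genes 1 rose, Ccnd2 (cyclin D2, 116 and 555, 2.11), and 2 fell, the stress-inducible Gadd45a (-1.21) and Gadd45g (-1.74). Of 25 glycolysis and hypoxia genes 1 rose, Ndrg1 (1.56), and 1 fell, Pdk1 (-1.24). Of 24 Hox genes, 0 of which passed the filter, Hoxb1 (5.4 and 32.2, 1.17) and Hoxb2 (11.7 and 47.7, 1.20) rose and 0 fell. Both lie at the 3' end of the HoxB cluster. From D2.5 to D3.5, 14 of the 24 rose, where 2.37% of all 18193 genes did.

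**Figure D5:**
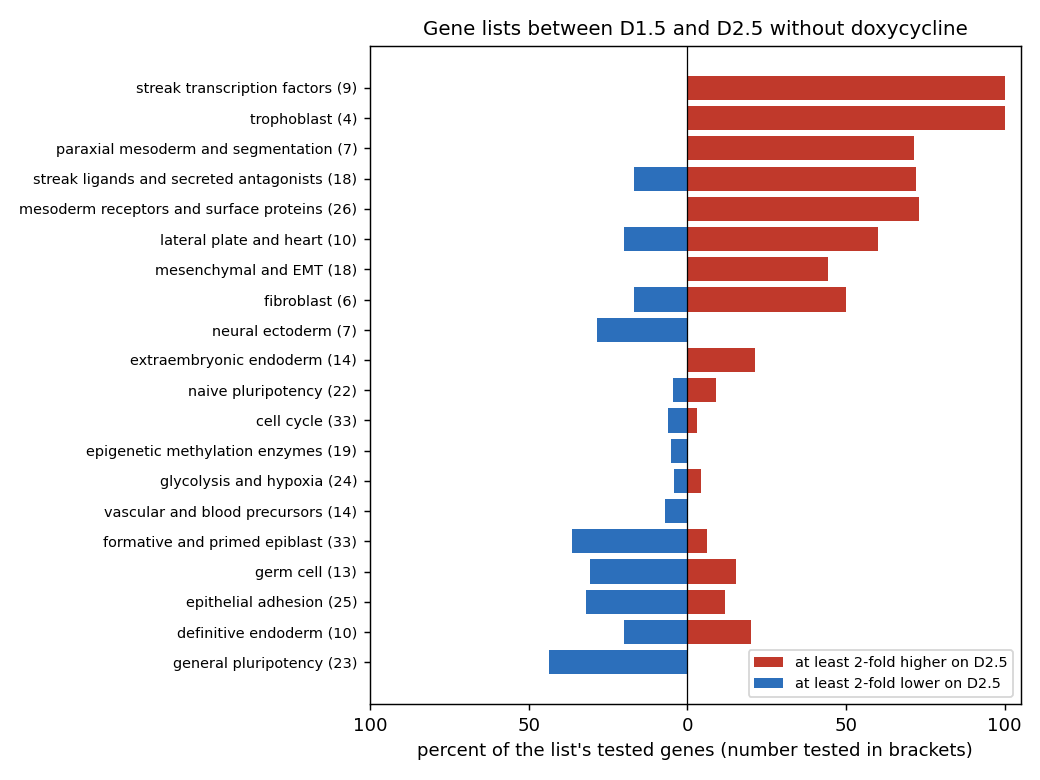
Percent of each list's tested genes that were at least 2-fold higher (red, to the right) or lower (blue, to the left) on D2.5 than on D1.5 in Dox-, with the number tested in brackets and lists sorted by median difference. All tested genes gave 2.81% and 2.49%, and a list of genes that are off on D1.5 can pass the signal filter only through later arrays, so bars of 100% to the right are in part built in.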

How the data were processed

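Per the submitters' processing notes, GCOS (the array software of Affymetrix) was used, and the authors deposited 1 signal per probe set. No source used here gives the software's version, background correction or detection filter. The deposited values are intensities on a linear scale. Sample descriptions point to arrays scaled to average 100, and the mean without the highest and lowest 2% was 100 on each array, so no further normalization was applied. Of 45101 probe sets, 34945 have 1 gene symbol, 932 several and 9224 none here; symbols come from the platform annotation, 34741 of them updated through the RefSeq table of GRCm38.p6. Those with several symbols were not used.

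From the deposited intensities, log2(signal + 16) was computed (python 3.11.15, pandas 2.3.3), and arrays were subtracted. With 1 array a group no test was run.

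Named genes are the 4 markers and other genes always given, the 15 furthest up and down, the 3 furthest past 2-fold each way in each list, the 8 largest falls of epiblast genes in each step, and the 5 profiles nearest Mixl1. Other list members and the 8 genes that differed by less than 0.5 in Dox+ were named after their values were seen. The lists and rules were chosen with earlier results of these data known. Some listed genes have no probe set with 1 symbol and were not analysed here. Alternatives were the pseudocount, the signal filter, array centring, quantile normalization, the probe set and the fold. Among the named genes, 56 had other probe sets, 0 of which went the other way by 0.5 or more.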

Additional observations from a re-analysis of the deposited data

Results flagged for a closer look

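Across the same days, D1.5 to D2.5, 25 tested genes moved at least 2-fold in opposite directions in the 2 media, 10 upward and 15 downward in Dox-, and 9 of them are named here. Each rests on 1 array a side, and the difference between the media was not tested. Tbx3 differed by 3.16 in Dox- and -1.73 in Dox+ on the log2(signal + 16) scale, Dll1 by 2.59 and -1.49, Fn1 by 2.39 and -1.04, and Prdm14 by 1.89 and -1.13. Downward in Dox- were Spon1 at -2.45 against 1.30, Slc27a2 at -2.08 against 1.39, Marveld3 at -1.60 against 1.54, Crb3 at -1.43 against 1.59 and Cldn6 at -1.23 against 1.32. The junction genes Marveld3, Crb3 and Cldn6 read 114, 224 and 163 on D2.5 in Dox+, beside 104.5, 139 and 179 on D1.5 in Dox-.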

How the results depend on the processing

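The 245 genes that rose became 146 at a pseudocount of 64, and ranged from 173 to 314 under the other alternatives. The 217 that fell became 371 at a pseudocount of 1, 78 at a pseudocount of 64 and 144 with the mean of all probe sets. The pseudocount sets how far dim genes can move, so these counts depend on it by construction. The 22 tested streak genes that rose ranged from 17 to 22 under alternatives that keep a signal filter and became 31 of 47 without one, and the 21 epiblast genes that fell from 17 to 24. The 20 epiblast genes that fell in the Dox- step and stayed down became 13 at 3-fold. Alternatives for the Dox+ counts were added after the values were seen. There the 8 genes that rose on the same days became 32 at a pseudocount of 1 and 2 at a pseudocount of 64, and the 98 that rose a day later became 156 and 43. With the second brightest probe set Sox3 gave 0.30 and Fbln2 -0.05, opposite to their main values, and the cause was not tested. Of 546 values of named genes under alternatives, 487 kept their side of 2-fold and their direction, 55 fell short of 2-fold, 2 passed it and 2 turned. No array could be left out, since each group is 1 array. No paired analysis was possible because the labels give no replicate numbers beyond 1 array a group. Centring shifted the median difference by -0.046 at most. Many streak genes had signals under 50 on D1.5, where the size of a fold is set by the pseudocount.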

Other observations

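The groups here were put together after the values were seen and carry no test. Genes tied to the response to Wnt signals, feedback genes among them, rose in 9 of 16 cases with 1 fallen in the Dox- step. Over all 18193 genes 1.73% rose and 1.41% fell. The median was 1.10 over the 16, against -0.07 over the same days in Dox+. Of the 9, Sp5, Dkk1 and Wnt8a are also counted among the streak genes above. The tested genes Ccnd1 (958 and 931, -0.04) and Znrf3 (0.63) stayed within 2-fold. Notum (0.07), Lgr5 (0.37) and Rnf43 (-0.56), which did not pass the signal filter, stayed within 2-fold as well. Axin2, a scaffold gene that limits Wnt signals, read 28.1 and 285 (2.77), Nkd1 21.7 and 69.7 (1.18), Myc 167 and 352 (1.01) and Apcdd1 40.9 and 212 (2.00). Apcdd1 was read by a probe set of the type that can cross-hybridize, as were Wnt3, Wnt5b, Pcdh8, Myb, Ndrg1 and Eras. Other Apcdd1 probe sets gave from 0.40 to 1.26, and the mean of all gave 0.93, short of 2-fold. Tcf7l1 (Tcf3), a repressor of Wnt targets in pluripotent cells, fell (1035 and 481, -1.08), and Lef1 read 561 and 679 (0.27).

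Genes of antigen processing and interferon response rose in 7 of 16 cases with 0 fallen, where 1.73% of all 18193 genes rose and 1.41% fell. The median was 0.86 over the 16, and 0.48 over the same days in Dox+. Of the 7, Psmb8, Gbp2, Gbp2b and Cd40 had signals of 22.6 or less on D1.5. Psmb9, Tap1, Tap2 and Nlrc5 did not pass the signal filter and stayed within 2-fold (-0.28, 0.30, 0.73 and -0.06). Tapbp, which loads peptides on class I molecules, read 60.6 and 243 (1.76), Erap1, a peptide-trimming enzyme gene, 38.8 and 158.5 (1.67), and Ctsc 357 and 918 (1.32). Irf1, an interferon-regulated factor, read 153 and 321 (1.00 after rounding), just short of 2-fold, and is not among the 7. The class I genes H2-K1 and H2-D1 and B2m stayed within 2-fold (-0.12, 0.45 and 0.23). Of 11 subunit genes of canonical Polycomb repressive complex 1, 3 fell and 1 rose (median 0.04), beside 1.41% and 1.73% of all 18193 genes. Cbx7 (253 and 86.5, -1.39), Cbx6 (608 and 231, -1.34) and Phc1 (2452 and 1001, -1.28) fell. Phc2 rose (299 and 620, 1.02), while the shared subunit gene Rnf2 read 1030 and 1081. Of 20 germ cell genes 4 fell and 2 rose (median -0.41). Dazl (34.4 and 2.4, -1.45), Mael (54.2 and 8.3, -1.53), Sycp3 (-1.25) and Ddx4 (-1.24) fell, and Tfap2c (19.4 and 141, 2.15) and Prdm14 (1.89) rose. Of 9 metallothionein and zinc transport genes 3 fell and 0 rose (median -0.50). The metallothionein genes Mt1 (1384 and 341, -1.97) and Mt2 fell, and so did the zinc importer gene Slc39a14 (-1.39).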
